A study of Homo sapiens with 23 samples.

Results

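The knockout line 2B8 was compared with wild-type tumours in squamous carcinoma xenografts. All tumours grew from SCC-13, a long-established cell line of human skin squamous carcinoma, injected in Matrigel under the flank skin of NCG mice, which lack functional lymphocytes and carry human cells without rejecting them. The cells were labelled as wild type (WT) or knockout (KO) for human Flower (hFWE, gene symbol CACFD1), and every tumour was taken 26 days after injection. The members were chosen by their titles: the 4 tumours of KO line 2B8 (specimens 5542 to 5545) and the tumours of the WT lines 5B2 (4 tumours), 6C9 (3 tumours used) and 6C10 (4 tumours). These are 15 of the 23 tumours of the series. WT specimen 5533 of line 6C9 was left out because it stood apart, and the 7 tumours of the KO lines 2F7 and 1G10 served only to see whether 2B8 differed from other knockouts. KO 2B8 is 1 line, so what belongs to the line and what belongs to the knockout cannot be told apart. Whether the tumours of a line come from separate mice is not in the labels, and all p-values rest on the tumour-to-tumour spread alone.

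Flower is a transmembrane protein known from cell competition, in which neighbouring cells compare fitness and the less fit are removed, and the series concerns its isoform hFWE4 and cornification. Cornification is the last step of keratinocyte differentiation: a basal cell leaves the basement membrane, makes the suprabasal keratins KRT1 and KRT10, crosslinks proteins such as filaggrin and loricrin under its membrane, secretes lipids between the cells and is finally shed by kallikrein proteases. Well differentiated squamous carcinomas keep parts of this programme in their keratin pearls, while cells at the invading edge express basal integrins, laminins, fibronectin and matrix proteases.

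Transcripts of the targeted gene were present in every 2B8 tumour (CACFD1, ENSG00000160325, chromosome 9, 133459965 to 133470848, plus strand, build hg38). Its normalized value was 321, 277, 245 and 218 in specimens 5542, 5543, 5544 and 5545, and the lowest, median and highest of the 11 WT tumours were 286, 370.4 and 432. Of the 4, 3 lay below every WT tumour, and specimen 5542 lay inside the WT range but below its median. The means were 265 ± 44.1 (SD, n = 4) in 2B8 and 375 ± 48.7 (SD, n = 11) in WT, a log2 difference of -0.50 with SE 0.12. An exact permutation test over all 1365 splits of the 15 tumours gave p = 0.00147 (two-sided), and the design allows no p under 0.000733. In limma, with adjustment over all genes, its adjusted p was 0.0807. By line, WT means were 403 (5B2), 326 (6C9) and 384 (6C10), and the other knockouts had 342 (2F7) and 237 (1G10). The value counts all transcripts of the gene together and does not show whether they carry the edit.

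**Figure D1:**
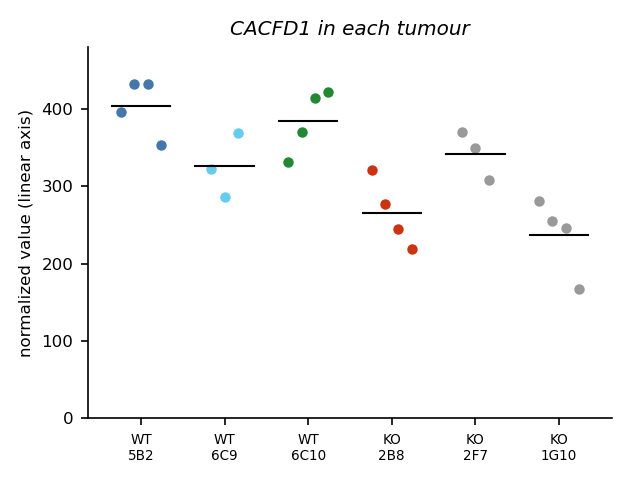
Normalized value of CACFD1 (linear axis) in each tumour by line, with the line mean as a bar. KO 2B8 is in red, the 3 WT lines in blue, cyan and green, and the other KO lines in grey. The 4 tumours of 2B8 lie between 218 and 321, all below the WT median of 370.4.

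Depth was similar in the groups, apart from 1 shallow WT library. Reads were roughly estimated by taking the most frequent low value of each library as 1 read. These estimates ranged from 15413300 to 17855200 in the 4 tumours of 2B8. They ranged from 13082200 to 22093200 in 10 WT tumours, and WT specimen 5532 had 7011070. Mitochondrially encoded transcripts took 1.42% to 3.50% of the signal in the 15 tumours. Within 2B8 this share was 2.92% and 2.73% in specimens 5542 and 5543 and 1.42% and 1.66% in 5544 and 5545. Specimen 5533, which was left out, had an estimated 2037750 reads and 6.21% mitochondrial signal. The keratinocyte label held in every tumour: KRT14 was 330544 to 359633 in 2B8 and 202703 to 412428 in WT, and TP63, the master regulator of stratified epithelium, was 5261 to 6669 and 3903 to 6327.

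Across 15949 genes with a mean of at least 10, limma called 0 genes at an adjusted p under 0.05, 0% in either direction. Without adjustment, 2243 genes (14.1%) had a p under 0.05, 959 with a higher mean in 2B8 (6.01%) and 1284 with a lower one (8.05%). The lowest adjusted p in limma was 0.0626, and 247 genes had an adjusted p under 0.10, 62 of them higher and 185 lower in 2B8. The 4 tumours of 2B8 lay above all 11 WT tumours for 43 genes (0.27%) and below all of them for 64 (0.401%), 0.671% together. The median log2 difference of all genes was 0.01. How many genes pass depends on a few tumours. With line 6C9 left out, limma called 215 genes higher and 556 lower, and leaving out a single tumour gave 94 and 329 without WT 5531, 48 and 181 without WT 5529, 25 and 39 without WT 5530, 16 and 28 without KO 5543, and 1 and 0 without WT 5528. In none of the other 10 fits without 1 tumour was a gene called. Gene groups are therefore given as values, medians and counts at an unadjusted p under 0.05, to be read against 6.01% of all genes on the higher side and 8.05% on the lower, and no single gene named has an adjusted p under 0.0626 in limma.

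Genes that separated 2B8 from WT in every tumour included matrix proteins and antiviral proteins on the higher side. FN1, which encodes fibronectin (ENSG00000115414, chromosome 2, 215360440 to 215436073, minus strand), was 5319.8, 4633, 6179.8 and 4304 in specimens 5542 to 5545, and 636, 1616 and 3706 were the lowest, median and highest WT values. The mean was 5109 ± 829.8 (SD, n = 4) against 1773 ± 961 (SD, n = 11), a log2 difference of 1.72 with SE 0.38 and a limma adjusted p of 0.0806. All 4 tumours of 2B8 lay above the highest WT tumour, specimen 5530. TNC, the matrix protein tenascin C, was 1730.0, 1629, 2796 and 1328 in 2B8 and 456 to 1326 in WT. The margin was narrow, since the lowest 2B8 tumour lay next to the highest WT tumour, and the log2 difference was 0.99 (limma adjusted p = 0.101). TRANK1 (ENSG00000168016, chromosome 3, 36826819 to 36945057, minus strand) had the lowest p among genes with a symbol: its values were 224, 191, 239 and 252 in 2B8 and 111 to 169 in WT, with a log2 difference of 0.75 and a limma adjusted p of 0.0626. NRP1, a co-receptor for semaphorins and VEGF, was 77.6 to 108 against 36.3 to 73.6, and SLC15A3, a lysosomal peptide transporter, 56.2 to 97.5 against 21.2 to 50.6. SMAD3, which carries TGF-beta signals to the nucleus, was 705 to 898 against 520.2 to 699 (log2 difference 0.36). CNTNAP3 was 109 to 141 against 49.5 to 102, a value that near-identical copies of the gene may share, and C1QTNF3 was 87.2 to 169.7 against 34.2 to 86.0.

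On the lower side, the genes that separated the groups included a nuclease of cornification, a tight junction protein and an inhibitor of differentiation. DNASE1L2, which breaks down nuclear DNA as keratinocytes cornify (ENSG00000167968, chromosome 16, 2235816 to 2238711, plus strand), was 64.2, 73.5, 61.2 and 70.1 in specimens 5542 to 5545, and the WT tumours had 78.1, 195 and 377 as lowest, median and highest. The 2B8 values were close together at 67.2 ± 5.58 (SD, n = 4), while WT spread over 207 ± 104 (SD, n = 11), and the log2 difference was -1.43 with SE 0.36 (limma adjusted p = 0.0924). ID1, which blocks basic helix-loop-helix factors and is a target of BMP signalling (ENSG00000125968, chromosome 20, 31605283 to 31606515, plus strand), was 865, 698, 822 and 771 in 2B8 and 939.9, 1515 and 2002 as lowest, median and highest in WT. None of the 2B8 values overlapped WT, and the log2 difference was -0.89 with SE 0.19 (limma adjusted p = 0.079). CLDN4, a claudin of tight junctions, was 1525, 1553, 1519 and 1273 in 2B8, while the lowest WT tumour had 1591 and the median 2906. The gap between the groups was small for CLDN4, with a log2 difference of -0.80 (limma adjusted p = 0.0806). HPSE, the heparan sulfate cleaving enzyme heparanase, was 51.1 to 69.4 against 76.3 to 143, BCO2, a carotenoid cleaving enzyme, 88.1 to 101 against 117 to 283, and CTSD, the lysosomal protease cathepsin D, 3294 to 3982 against 4118 to 6859. The largest log2 difference in this group was that of the zinc finger gene ZNF662, at -2.32, from 5.87 to 23.9 in 2B8 and 24.0 to 162 in WT. The remaining genes named by the same rule were AVPI1 at -0.96, TMEM125 at -0.92, NKPD1 at -0.80, GPSM1 at -0.70, MATK at -0.63 and SLURP2 at -1.19, the last of which overlaps LYNX1, so reads may be shared between the genes.

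**Figure D2:**
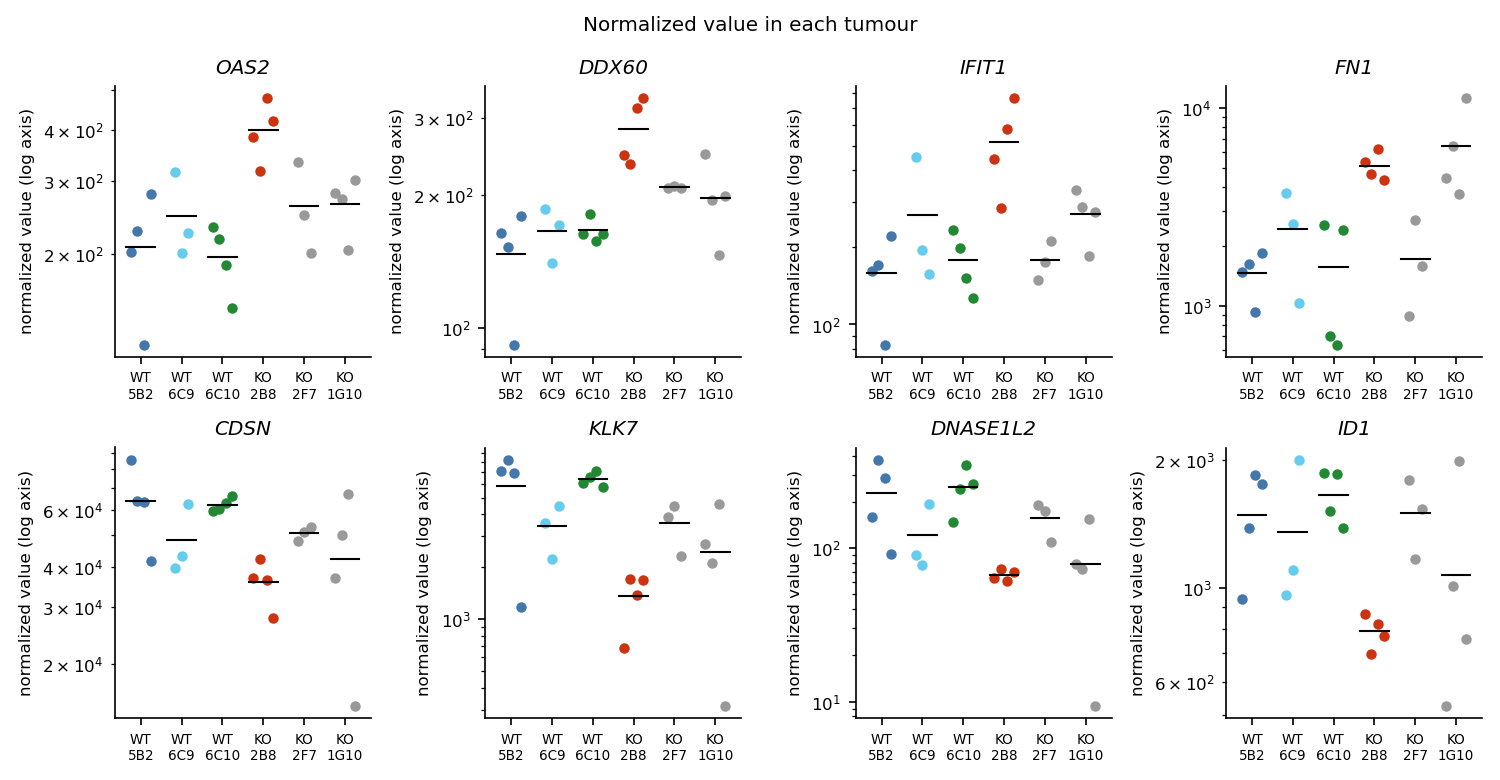
Normalized value (log axis) of 8 genes in each tumour by line, with line means as bars. KO 2B8 in red lies above the WT lines (blue, cyan, green) for OAS2, DDX60 and FN1 and below them for DNASE1L2 and ID1, while IFIT1, CDSN and KLK7 overlap WT in 1 or more tumours. Grey points are the KO lines 2F7 and 1G10.

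Interferon response genes stood out by number on the higher side. Type I interferon acts through a transcription factor complex that binds interferon-stimulated response elements, a repeat of GAAA, near the start of antiviral genes. Of 52 interferon genes tested, 41 had an unadjusted p under 0.05 with a higher mean in 2B8 and 2 with a lower one, OASL and GBP2, where the shares over all genes were 6.01% and 8.05%. Their median log2 difference was 0.54, against 0.01 over all genes, and 0 passed the adjusted threshold, with a lowest limma adjusted p of 0.079. For 40 of the 52, all 4 tumours of 2B8 lay above the WT median (17.1% over all genes). For 4 (OAS2, DDX60, DDX60L and PARP14) they lay above every WT tumour (0.27% over all genes). Interferon genes were also 10 of the 20 largest positive statistics among protein coding genes with a symbol and a mean of at least 50. The list was written with earlier results of these data known, so this count is no separate support.

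The repeat GAAANNGAAA, searched on both strands in the 250 bases before each gene start (RefSeq, GRCh38.p14), was found in 22 of the 41 interferon genes that matched the promoter table (53.7%), in 6 of 16 antigen presentation genes (37.5%), in 253 of 10797 promoters of tested genes (2.34%) and in 839 of all 27305 promoters (3.07%). In the lists of differentiation it was found in 1 of 38 cornified envelope genes, 1 of 22 late keratin and spinous genes, 0 of 14 protease genes and 0 of 30 barrier lipid genes. The promoters of OAS2 and MX2 were not matched and so were not searched. Windows of 80 bases are shown for 6 genes, to let the repeat be seen beside the values that follow. These are the matched interferon genes with the smallest p that hold the repeat. Each window is read 5′ to 3′ on the gene's strand. Capitals mark the match on either strand, which reads TTTCNNTTTC where it lies on the other strand.
DDX60 (chr4:168318761-168318840, minus strand): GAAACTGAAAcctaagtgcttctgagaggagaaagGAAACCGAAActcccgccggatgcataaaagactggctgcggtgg
EPSTI1 (chr13:42992247-42992326, minus strand): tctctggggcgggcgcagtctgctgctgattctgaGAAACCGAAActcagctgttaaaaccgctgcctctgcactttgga
PARP14 (chr3:122680759-122680838, plus strand): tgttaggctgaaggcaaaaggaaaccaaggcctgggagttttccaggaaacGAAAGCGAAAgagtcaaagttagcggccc
IFI44 (chr1:78649709-78649788, plus strand): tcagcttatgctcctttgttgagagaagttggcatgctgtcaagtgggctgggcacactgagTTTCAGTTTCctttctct
OAS3 (chr12:112938394-112938473, plus strand): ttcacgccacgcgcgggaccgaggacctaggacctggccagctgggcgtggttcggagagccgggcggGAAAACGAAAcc
IFIT3 (chr10:89327840-89327919, plus strand): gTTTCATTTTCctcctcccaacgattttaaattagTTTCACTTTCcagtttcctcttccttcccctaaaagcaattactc
DDX60 and IFIT3 hold 2 matches in the window shown, and OAS3 holds 1 of its 2 there. A match is a description of these letters and does not show that a factor binds. The shares depend on which genes were listed and use no difference between 2B8 and WT.

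OAS2, which makes the messenger that activates RNase L (ENSG00000111335, chromosome 12, 112978395 to 113011723, plus strand), was 383, 317, 477 and 421 in specimens 5542 to 5545, and 121, 217 and 315 were the lowest, median and highest WT values. The groups did not overlap, and the highest WT tumour was specimen 5530. The log2 difference was 0.93 with SE 0.19 (limma adjusted p = 0.079). DDX60, a helicase that helps RIG-I sense viral RNA, was 247, 236, 316 and 332 in 2B8 and 91.9, 163 and 187 as lowest, median and highest in WT. It was again separated from WT in every tumour, by a log2 difference of 0.83 with SE 0.15 (limma adjusted p = 0.079). Its neighbour DDX60L was 156 to 196 against 82.1 to 136, and PARP14, an ADP-ribosyltransferase, 546 to 714 against 286 to 518. SAMHD1, an enzyme that depletes nucleotides from infected cells, was 135 to 184 against 55.3 to 126 without overlap.

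The strongly inducible effectors had larger differences but overlapped WT. IFIT1, which binds foreign RNA caps, was 441, 284, 582 and 765 in 2B8, and the WT tumours had 83.5, 170.3 and 451 as lowest, median and highest. WT specimen 5530 lay above specimens 5542 and 5543, and the other 10 WT tumours lay below all 4. The log2 difference was 1.43 with SE 0.31 (limma adjusted p = 0.079). MX1, a GTPase that traps viral particles, was 563, 253, 679.6 and 821 against a WT range of 67.5 to 491, and its relative MX2 was 102, 60.3, 88.0 and 78.2 against 9.07 to 62.4. Their log2 differences were 1.60 and 1.84, and specimen 5543 was the lowest 2B8 tumour for both. ISG15, a ubiquitin-like modifier, was 284 to 703 against 148 to 448 (log2 difference 1.00), IFIT3 278 to 653 against 86.0 to 329.6 (1.21), IFI44 145 to 327 against 41.3 to 187 (1.37) and IFI44L 13.2 to 76.7 against 0.84 to 22.9 (2.14). EPSTI1 and OAS3 differed by 1.15 and 0.52 in log2, and the 2 members with the highest mean, LGALS3BP and ADAR, by 0.35 and 0.23.

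The interferon score, the mean log2 value of the 52 genes, was 8.33, 8.00, 8.55 and 8.61 in specimens 5542 to 5545 and 7.21, 7.71 and 8.26 as lowest, median and highest in WT. WT specimen 5530 of line 6C9 had the highest WT score and lay above specimen 5543. The list medians were 0.66 against line 5B2, 0.32 against 6C9 and 0.59 against 6C10. With line 6C9 left out, 28 of the 52 passed the adjusted threshold in limma, all with a higher mean in 2B8, and without WT specimen 5531 there were 19. Of all genes tested, 215 were called higher in the first of these fits and 94 in the second. Antigen presentation genes, many of them interferon targets, had 8 of 21 at an unadjusted p under 0.05 with a higher mean and 0 with a lower one (6.01% and 8.05% over all genes), and a median log2 difference of 0.26. That count was 2 without KO specimen 5544, 4 without 5545 and 1 with WT specimen 5533 kept. NLRC5, the activator of MHC class I genes, was 299.9, 319, 324 and 299 in 2B8 and 157, 187 and 336 as lowest, median and highest in WT, and B2M, the class I light chain, was 6651 to 10052 against 5080.5 to 8817. NLRC5 in 2B8 lay above every WT tumour except specimen 5529, while B2M overlapped. Myeloid cells can also express these genes. PTPRC, the pan-leukocyte marker, was 4.95 to 21.8 in 2B8 and 0 to 10.2 in WT, and CD3E, the T cell marker, was at 0 in 1 of 4 and 5 of 11 tumours. Of 20 listed myeloid markers, 14 were found in the table. Their summed signal was 30700.2 to 55855 in 2B8 and 35617 to 91821 in WT. It includes S100A8, which keratinocytes make too. The mean log2 value of the 6 tested markers, which weighs each alike, was 7.71, 7.19, 7.98 and 6.93 in specimens 5542 to 5545. The WT tumours had 6.04, 7.23 and 7.60 as lowest, median and highest, so specimens 5542 and 5544 lay above all of WT. None of the 14 markers found was at 0 in all 15 tumours, and the markers not found were not analysed here. The part of myeloid cells in the result was not tested.

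Genes of terminal differentiation were on the lower side. Of 45 cornified envelope genes tested, 31 had an unadjusted p under 0.05 with a lower mean in 2B8 and 0 with a higher one (shares over all genes 8.05% and 6.01%), with a median log2 difference of -0.71. The counts were 22 and 0 of 30 late keratin and spinous genes with a median of -0.93, 23 and 0 of 26 epidermal proteases and inhibitors with -0.94, and 26 and 1 of 34 barrier lipid genes with -0.60. None of these genes passed the adjusted threshold, and some genes are on more than 1 list. With line 6C9 left out, 24, 20, 17 and 23 members of these 4 lists were called lower in limma, and without WT specimen 5531 the counts were 15, 19, 13 and 20. Of all genes tested, 556 were called lower in the first of these fits and 329 in the second. Line 6C9, which holds specimen 5531, was the WT line nearest to 2B8 by the medians of all 4 lists.

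LORICRIN, the main protein of the envelope by mass, was 1214, 4615, 1669 and 3256 in specimens 5542 to 5545, and the lowest, median and highest WT values were 2982, 17203 and 35155. Its log2 difference was -2.54 with SE 0.60 (limma adjusted p = 0.0807), and specimens 5543 and 5545 lay inside the WT range, near its lower end. FLG, which encodes filaggrin, the keratin bundling protein, was 17148, 50802, 22421 and 26942 in 2B8 and 19749.8, 110221 and 139602 as lowest, median and highest in WT. The spread of FLG was wide in both groups, and the log2 difference of -1.54 had a limma adjusted p of 0.16. CDSN, the adhesive protein of corneodesmosomes, was 36719.7, 42093, 36242 and 27710.4 against a WT range of 39629 to 85716, with a log2 difference of -0.71 and a limma adjusted p of 0.0938. SCEL and CNFN, further envelope proteins, differed by -1.42 and -1.29, TGM3, a crosslinking transglutaminase, by -1.83 and TGM1 by -0.53. Not all members were lower: IVL, the early envelope protein involucrin, was 21298, 20384, 10021 and 7249 in 2B8 against 8058, 10659.5 and 21488 as lowest, median and highest in WT. Its log2 difference was 0.20 (limma adjusted p = 0.795), and the high values were those of specimens 5542 and 5543. The small proline-rich genes SPRR2A and SPRR2D differed by 0.24 and 0.29, and EVPL by -0.01, none with an unadjusted p under 0.05 in limma.

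KRT10 and KRT1, the paired suprabasal keratins, were 68183, 122434, 76655 and 107416, and 22650.5, 57123, 40142 and 47864, in specimens 5542 to 5545. The WT ranges were 75726 to 267276 and 31439 to 119700.0, so only specimen 5542 lay below them, for both genes. Their log2 differences were -0.85 and -0.92 (limma adjusted p = 0.169 and 0.194). KRT79 was 281, 598, 559.8 and 366 against 467 to 2046, a log2 difference of -1.46, and CASP14, the caspase of cornification, 15549, 21435, 16512 and 17559 against 19071 to 32054, one of -0.52. BLMH, which breaks filaggrin down into amino acids, differed by -1.43 and HAL, which turns histidine into urocanic acid, by -1.92. PADI3, a peptidylarginine deiminase that modifies filaggrin and trichohyalin, went the other way at 30.9, 28.9, 24.3 and 30.8 in 2B8 and 4.46 to 22.9 in WT, without overlap (log2 difference 0.95, limma adjusted p = 0.183). Of 13 enzymes of filaggrin processing, 7 had an unadjusted p under 0.05 with a lower mean and PADI3 with a higher one (8.05% and 6.01% over all genes). Their median log2 difference was -0.24, and -0.14 without KO specimen 5545.

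The kallikreins, serine proteases that cut corneodesmosomes, were on the lower side. KLK7 was 680.2, 1702, 1379 and 1665 in specimens 5542 to 5545 and 1164, 6065 and 8246 as lowest, median and highest in WT. Only WT specimen 5529 overlapped 2B8, and the log2 difference was -1.89 with SE 0.41 (limma adjusted p = 0.0806). KLK5, which activates KLK7, was 815, 1681, 1963 and 1655 against 1315, 6922 and 9620.0, a log2 difference of -1.86. KLK8, KLK10 and KLK11 differed by -1.44, -1.92 and -1.58. SPINK5, the inhibitor of these proteases, differed by -1.02 (limma adjusted p = 0.0807). PI3, the elastase inhibitor elafin, was 13291, 24249, 6272 and 4962 in 2B8 and 7750.0 to 24741 in WT, and its 2 highest 2B8 values were those of specimens 5542 and 5543. Among lipid genes, SULT2B1, which makes cholesterol sulfate, was 1568, 1921, 1124 and 1098 in 2B8 and 1777, 2509 and 2996 as lowest, median and highest in WT, and 3 of the 4 lay below every WT tumour. Its log2 difference was -0.79 with SE 0.15 and a limma adjusted p of 0.079. ALOX12B and ALOXE3, lipoxygenases that act on skin ceramides, differed by -1.11 and -0.82, ELOVL4, which makes very long fatty acids, by -1.29, and ABCA12, their lipid transporter, by -0.74. CYP26B1, which breaks down retinoic acid, was the exception among those at an unadjusted p under 0.05, with a log2 difference of 0.93.

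Per tumour, the envelope score was 9.43, 9.87, 9.36 and 9.34 in specimens 5542 to 5545 and 9.48, 10.53 and 10.73 as lowest, median and highest in WT, and the protease score was 8.52, 9.19, 8.82 and 8.69 and 8.87, 10.19 and 10.44. All 4 tumours of 2B8 lay below the WT median in both, but 3 WT tumours overlapped them in both. WT specimens 5529 of line 5B2 and 5530 and 5531 of line 6C9 had envelope scores of 9.67, 9.70 and 9.48, below specimen 5543. Their protease scores were 9.04, 9.17 and 8.87, also below specimen 5543, where the other 8 WT tumours were at least 10.03. Against the WT lines one by one, the envelope medians were -0.85 against line 5B2, -0.43 against 6C9 and -0.83 against 6C10, and the protease medians -1.05 against line 5B2, -0.50 against 6C9 and -1.29 against 6C10. The difference from 6C9, with 3 tumours used, was thus the smallest of the 3 for both lists. Its tumours were not alike: specimen 5532 had envelope and protease scores of 10.69 and 10.03. Specimen 5533 of that line, which was left out, had 11.04 and 11.06.

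**Figure D3:**
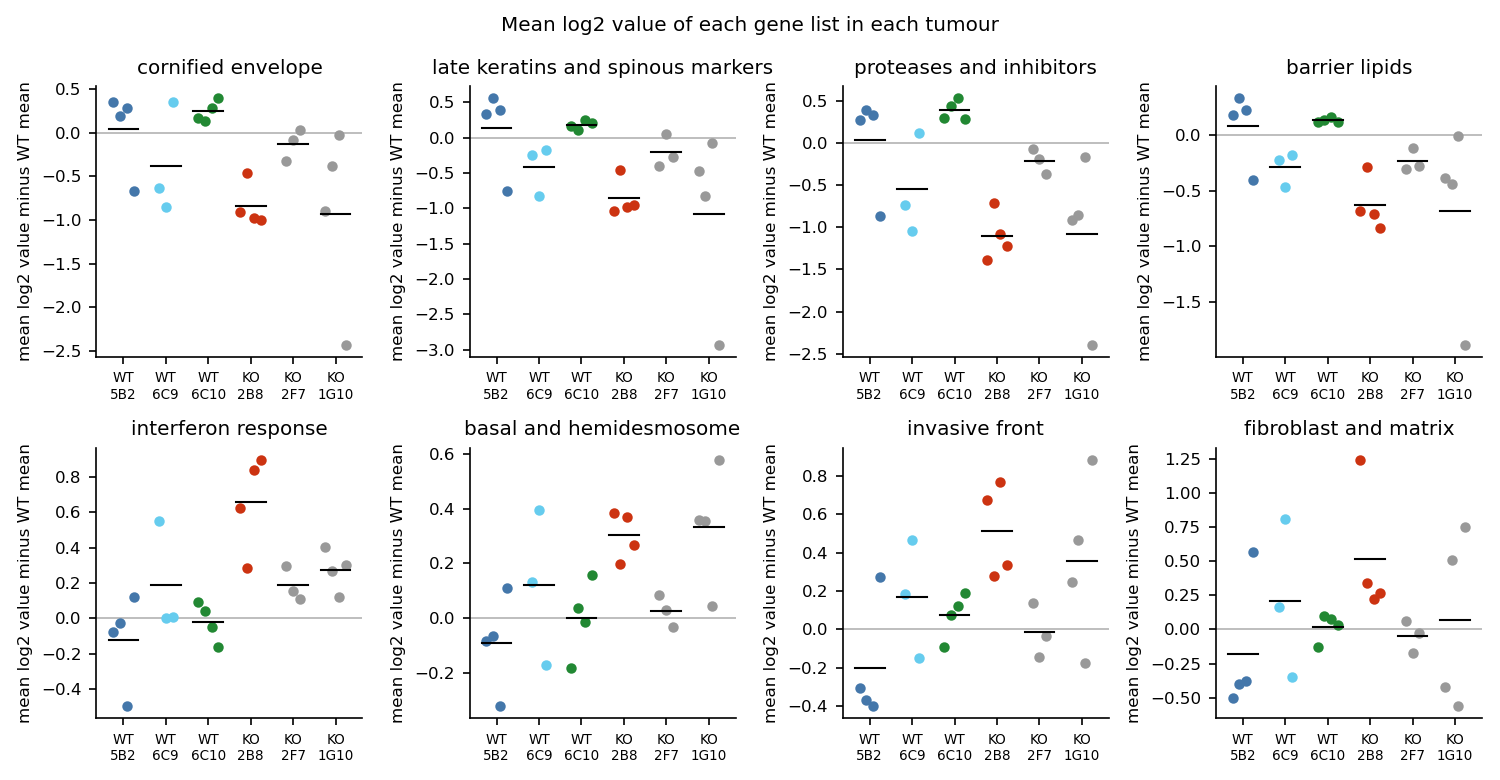
Mean log2 value of each gene list in each tumour, minus the mean of the 11 WT tumours (vertical axis, log2), by line with line means as bars. KO 2B8 (red) lies low for the 4 differentiation lists and high for the interferon list. For the envelope and protease lists, 1 tumour of WT line 5B2 and 2 of WT line 6C9 lie within its range.

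Transcription factors and growth factors that govern differentiation were examined next. Of 34 differentiation factors, 12 had an unadjusted p under 0.05 with a lower mean and 3 with a higher one (8.05% and 6.01% over all genes), and the median log2 difference was -0.19. Without KO specimen 5545 the lower count was 7, and without 5542 the median was -0.11. OVOL1, a repressor that halts proliferation in differentiating cells, was 805, 1087, 945 and 728 against 967 to 1544, and GRHL1, an activator of desmosome genes, 1347, 1587, 957 and 775 against 1323 to 2084. Their log2 differences were -0.51 and -0.58, and those of KLF4 and ELF3 were -0.50 and -0.70. Of 25 genes of the EGF receptor family and its ligands, 1 was higher and 6 lower at that p, with a median of -0.03. HBEGF, a ligand of the EGF receptor, was 167, 249, 118 and 81.1 in 2B8 and 213, 363 and 490.2 as lowest, median and highest in WT. Only 1 tumour of 2B8 reached the WT range, and the log2 difference was -1.23 with SE 0.25 (limma adjusted p = 0.079). DUSP5 and EPHA2 differed by -0.70 and -0.49, and EGR3, an immediate early gene, by -1.48, while the receptor EGFR was 4187 to 5509.6 against 2958 to 5653 (log2 difference 0.40). JAG1, a Notch ligand, was 7148, 5959, 3699 and 3383 in 2B8 and 1729, 2656 and 4799 as lowest, median and highest in WT, so its high values were those of specimens 5542 and 5543. Of 22 Notch pathway genes, 2 had an unadjusted p under 0.05, both with a higher mean.

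Basal layer and matrix genes were on the higher side. Of 29 basal and hemidesmosome genes, 15 had an unadjusted p under 0.05 with a higher mean in 2B8 and 1 with a lower one (ASS1), with a median log2 difference of 0.37, where 6.01% and 8.05% of all genes did so. Of 29 genes of the invasive front, 16 were higher at that p and 0 lower, with a median of 0.51, and of 20 matrix metalloproteinases and inhibitors 9 were higher and 2 lower, with a median of 0.55. These counts rest partly on single tumours: without KO specimen 5544 the higher members numbered 8, 10 and 5 in the 3 lists. Without KO specimen 5542 the basal count was 9 and the metalloproteinase count 4 of 19 with a median of 0.35, and without WT specimen 5531 the latter was 14 of 19. DST, the hemidesmosome linker BPAG1, was 14010.5, 14095, 14036 and 15626 in specimens 5542 to 5545 and 7993, 10213 and 13734 as lowest, median and highest in WT. It did not overlap WT, at a log2 difference of 0.44 with SE 0.12 (limma adjusted p = 0.0938). LAMB1, a laminin chain, differed by 0.51, and the integrin genes ITGA2 and ITGA3 by 0.55 and 0.45. The basal keratins KRT5 and KRT14 were 287614 to 350791 and 330544 to 359633 in 2B8, against WT ranges of 193492 to 343215 and 202703 to 412428, with log2 differences of 0.22 and 0.25. THBS1, the adhesive protein thrombospondin, was 527, 466, 603 and 510.0 against 173, 283 and 473 as lowest, median and highest in WT, a log2 difference of 0.89 (limma adjusted p = 0.0806). CALD1, an actin-binding protein, was 1606 to 1964 against 1187 to 1555 without overlap, and VIM, which encodes vimentin, differed by 0.72. Among proteases, MMP13 was 513, 439, 922 and 546 against 201 to 485, a log2 difference of 0.80. MMP1 was 9559.7 to 20815 against 5265 to 19606. Not all members of the metalloproteinase list were higher: its log2 differences ran from -1.85 to 1.02.

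Fibroblast transcripts also had higher values in 2B8. In a whole tumour, fewer cells of a type and less RNA per cell cannot be told apart, and reads of the mouse host may count toward human genes where the sequences are alike. The summed signal of the 25 fibroblast and matrix markers was 15482 to 39300.4 in 2B8 and 10517 to 26513 in WT, and 5 of 22 tested had an unadjusted p under 0.05 with a higher mean and 0 with a lower one (median log2 difference 0.50, and 6.01% and 8.05% over all genes). Without KO specimen 5542 that count was 2 and the median 0.26, and the count was 10 without KO 5544, 8 without WT 5530 and 12 without WT 5531. COL1A1, the main fibroblast collagen, was 18009, 9019.8, 4465 and 5797 in specimens 5542 to 5545 and 3584, 4205 and 10322 as lowest, median and highest in WT. Specimen 5542 was above every WT tumour, and WT specimens 5529, 5530 and 5531, the 3 with the lowest envelope scores, were the highest of WT at 9569.7, 7159.8 and 10322. None of the fibroblast markers was at 0 in all 15 tumours, and DCN was 9.91 to 37.9 in 2B8 and 8.43 to 34.3 in WT. With the mean log2 value of these markers as a covariate, the invasive front median was 0.23, the basal median 0.16 and the metalloproteinase median 0.15, with 4, 5 and 3 members at an unadjusted p under 0.05 with a higher mean. In that fit the interferon median was 0.50 with 34 of 52 members higher at that p, and the envelope and protease medians were -0.46 and -0.68 with 12 and 12 members on the lower side. Endothelial and pericyte markers gave 2 higher and 1 lower of 8 tested at that p, with a median log2 difference of 0.46. PECAM1 was at 0 in 2 of 4 and 5 of 11 tumours. CDH5 was 7.43 to 12.57 in 2B8 and 0 to 8.5 in WT, and VWF 41.29 to 91.62 and 70.35 to 190.9. Skeletal muscle transcripts varied from tumour to tumour in both groups, with ACTA1 at 74.9 to 4558 in 2B8 and 13.1 to 5044 in WT.

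Genes of sterol synthesis were on the lower side. Of 34 genes of cholesterol and fatty acid synthesis, 19 had an unadjusted p under 0.05 with a lower mean in 2B8 and 0 with a higher one (8.05% and 6.01% over all genes), and the median log2 difference was -0.30. The lower count was 11 with WT specimen 5533 kept. With the fibroblast covariate it was 10, and the median was -0.16. FDPS, which makes farnesyl diphosphate, was 1169, 1266, 1287 and 1243 in specimens 5542 to 5545 and 1349, 2078 and 2565 as lowest, median and highest in WT. The groups did not overlap, at a log2 difference of -0.63 with SE 0.15 (limma adjusted p = 0.0806), and the same held for MVD (-0.38), EBP (-0.25) and STARD4 (-0.43). TM7SF2 and MSMO1, later steps of the pathway, differed by -0.96 and -0.66. FASN, the fatty acid synthase, was 2464 to 3137 against 2085 to 4076, and the sterol factor SREBF2 had a log2 difference of -0.06. Of 29 NRF2 targets, 1 was higher and 6 lower at that p (6.01% and 8.05% over all genes). HMOX1, which degrades heme, was 229.6, 371, 239 and 226 against 253 to 996, a log2 difference of -1.33 (limma adjusted p = 0.1).

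Several groups held no more members at an unadjusted p under 0.05 than the share over all genes (14.1%). These were cell cycle and replication genes (0 higher and 1 lower of 40), ribosomal proteins (0 and 1 of 45), mitochondrially encoded genes (0 and 0 of 13), hypoxia and glycolysis genes (2 and 1 of 34), Notch genes (2 and 0 of 22) and NF-kB and cytokine genes (0 and 2 of 20). The cell cycle median was 0.02 and the ribosomal median -0.08. CCND1, the most abundant of the cell cycle genes, was 2674, 2553, 2972 and 2716 in 2B8 and 2061 to 2820.1 in WT. Wound keratins did not stand apart: KRT6A was 147301 to 252872 against 172752 to 287835 and KRT16 109220.0 to 212914 against 107017 to 239022, with log2 differences of -0.04 and 0.09. The list they belong to was not one of these groups: 3 of 31 were higher and 12 lower at that p (6.01% and 8.05% over all genes). Without KO specimen 5545, 8 of 30 were lower. Among the 12 were S100A12 at -1.06 and SERPINB3 at -1.70.

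**Figure D4:**
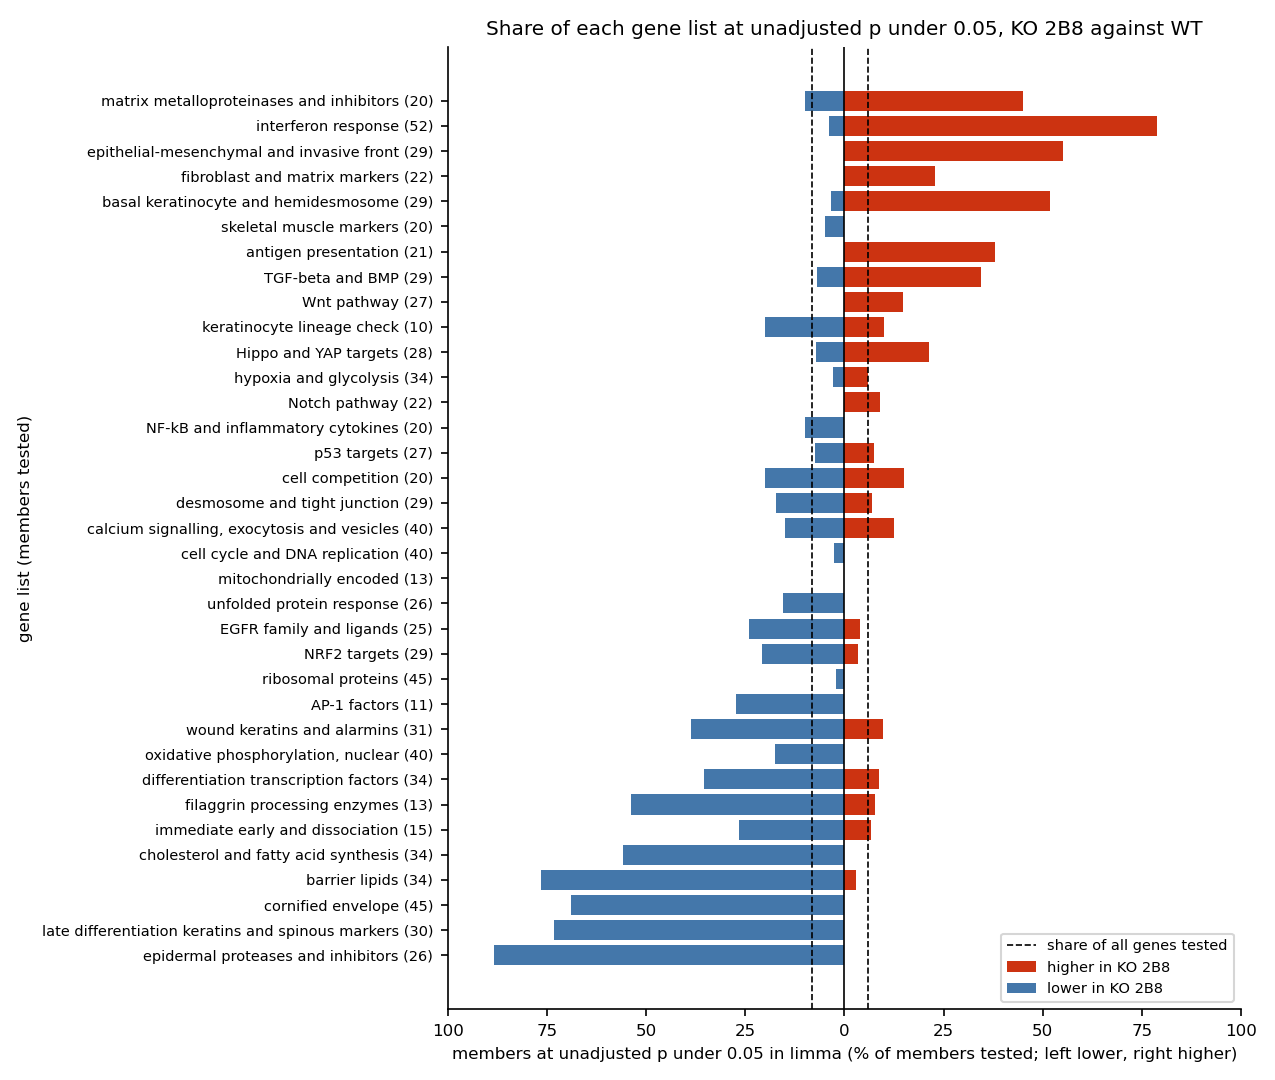
Share of each list's tested members (in percent, number tested in brackets) with an unadjusted p under 0.05 in limma, lower in KO 2B8 to the left and higher to the right, ordered by median log2 difference. Dashed lines mark the shares over all genes, 8.05% lower and 6.01% higher. The protease, late keratin, envelope and barrier lipid lists extend far to the left and the interferon list far to the right.

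Genes of chromosome 20 split the 2B8 tumours among themselves. The median log2 value of its 415 tested genes, minus their WT means, was 0.42 and 0.31 in specimens 5542 and 5543 and -0.10 and -0.11 in 5544 and 5545. Of the 11 WT tumours, specimens 5529 and 5531 were at 0.43 and 0.44 and the others between -0.12 and -0.06. In every stretch of 10 Mb along the chromosome these 4 tumours were at 0.28 or higher and the other 11 at 0.05 or lower. On the other 22 chromosomes the highest median of any of the 15 tumours was 0.11. An exact permutation test of each chromosome's tumour medians, adjusted over 23 chromosomes, called 0, with a lowest adjusted p of 0.741 and a chromosome 20 difference of 0.12 (exact p = 0.501). The genes named above that lie on this chromosome include JAG1, PI3, ID1 and SAMHD1. Within 2B8 the protease scores were 8.52 and 9.19 in the tumours with high medians and 8.82 and 8.69 in those with low ones. Within WT they were 9.04 and 8.87 in specimens 5529 and 5531, and 9.17 to 10.44 in the others. Whether these scores go with chromosome 20 was not tested. Whether the tumours differ in copies of chromosome 20 was not tested.

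**Figure D5:**
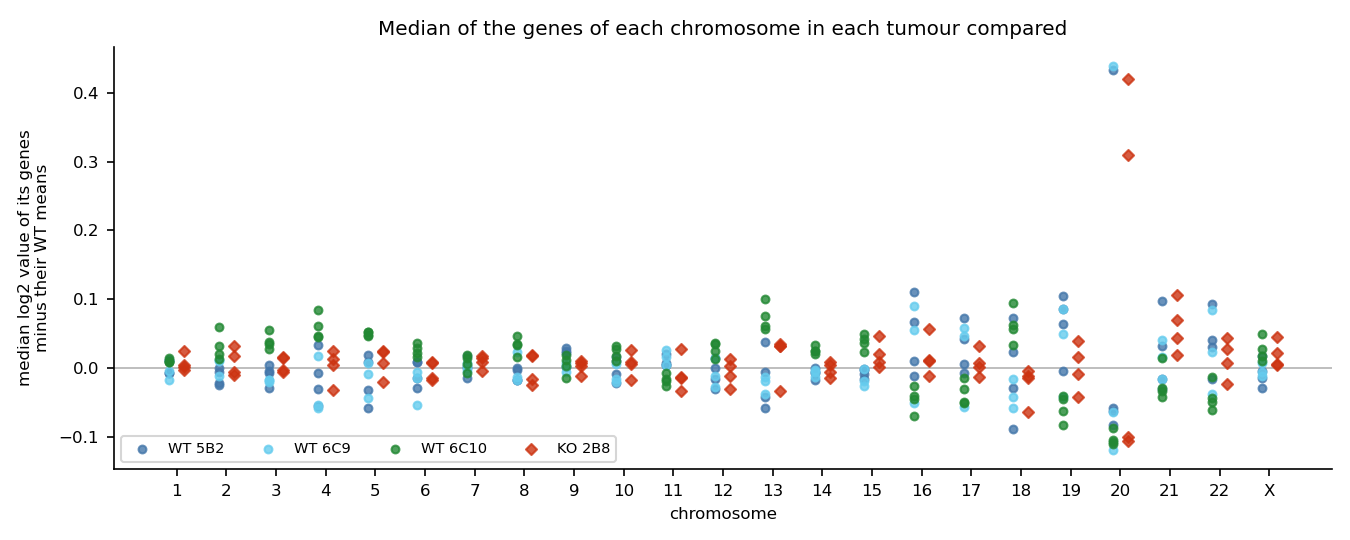
Median log2 value of the tested genes of each chromosome in each of the 15 tumours, minus their WT means (vertical axis, log2), with WT lines as circles and KO 2B8 as red diamonds. On chromosome 20, 2 tumours of KO 2B8 and 2 WT tumours lie above 0.3 and the others near -0.1.

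Against the other knockout lines, no gene could be called particular to 2B8. In a fit with 1 mean per line over 22 tumours, the contrast of 2B8 with the mean of 2F7 and 1G10 gave 0 called genes in limma (0%), with a lowest adjusted p of 0.999. Without adjustment, 603 genes (3.78%) had a p under 0.05, 410 higher in 2B8 (2.57%) and 193 lower (1.21%). In 11 fits without 1 KO tumour, 0 genes were called, and 344 to 947 had an unadjusted p under 0.05. The 1G10 tumours were unlike each other: specimen 5549 had an envelope score of 7.91 and the others 9.44 to 10.31. This contrast uses the same 4 tumours of 2B8 as the comparison with WT, so the 2 sets of values are given side by side only. The interferon list had 27 of 52 members at that p and a median log2 difference of 0.34 from the other knockouts, beside 0.54 from WT. OAS2 averaged 399.6 in 2B8, 261 in 2F7 and 265 in 1G10, and IFIT1 averaged 518, 179 and 271. The envelope list had 3 of 45 members at that p and a median of -0.33, and the protease list 3 of 26 and -0.46. FN1 averaged 5109 in 2B8, 1732 in 2F7 and 6419 in 1G10 (SD 830, 928 and 3390), and KLK7 1357, 3550.5 and 2425. By these means 2B8 lay nearer to 1G10 than to 2F7 for both.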

How the data were processed

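Poly(A) RNA-seq libraries were made from 500 ng of total RNA per tumour with a directional kit, per the labels' protocols. The deposited table is named as normalized counts, and its values, scaled by the authors in a way not given in the sources used here, were treated as signal since whole reads could not be recovered: 69.9% to 75.3% of low values fell within 0.02 of a whole read. STAR, DESeq2 and hg38 are named in the submitters' processing notes. How mouse reads were handled and whether counting used strand are not given in the sources used here.

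Columns were matched to tumours by library name. Values were taken as log2(value + 1), which understates differences of low genes, and the 15949 of 27589 genes whose mean in the 15 tumours reached 10 were fitted in limma 3.58.1 (R 4.3.3) with a mean-variance trend, 4 tumours against 11, with Benjamini-Hochberg adjustment over all genes and a threshold of 0.05. CACFD1 and chromosome medians were also tested by exact permutation over tumours (two-sided). No 2 libraries were near copies: chi-square per degree of freedom was 7.70 or more in each pair. The fit of 2B8 against WT was tested on simulated data, in which every gene and tumour was drawn independently and lines did not differ. That simulation cannot show how the fit behaves where genes move together or tumours of a line differ. Promoters came from RefSeq.

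The members and gene lists were chosen with earlier results of these data known. The rule for naming single genes asked for an adjusted p under 0.05, all 4 tumours outside the WT range and a mean of at least 50 in the higher group, and it named 0 genes. The same rule without the adjusted p then gave the 12 protein coding genes with the largest difference in each direction, chosen after their values were seen. From each list came the 2 members with the highest mean, the 4 with the smallest p and those without overlap, and other members were named for their role. Alternatives covered pseudocount, filter, normalization, line, library weights, a fibroblast covariate and each tumour left out. Some genes that these rules take are not reported here.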

Additional observations from a re-analysis of the deposited data

Results flagged for a closer look

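In the 4 tumours of KO 2B8, 112 results were examined for 1 tumour standing far from the others (Dixon's test), and 7 did so. Chance flags about 1 in 20, so this number is near what chance alone gives, and the values are listed without further reading. Specimen 5543 was the tumour in 4 of them. Its cornified envelope score was 9.87, with the next at 9.43, and the protease gene KLK11 was at 568 with the next at 313. HMOX1 was at 371 against a next value of 239, and the antiviral gene OAS3 was lowest there, at 1028 against 1347. Specimen 5545 had the highest DST, at 15626 with the next at 14095, and the lowest CLDN4, at 1273 with the next at 1519. Specimen 5542 had the highest C1QTNF3, at 169.7 with the next at 94.1. WT had 11 tumours and was not examined in this way.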

How the results depend on the processing

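The number of called genes, 0 in each direction, was the value that moved most. It became 3 higher and 1 lower with no filter beyond a mean above 0, 1 and 1 with a mean of at least 50, 1 and 1 with quantile normalization, 8 and 19 with 1 mean per line, 215 and 556 with line 6C9 left out, and 353 and 702 with library quality weights. Leaving out 1 tumour gave 0 to 94 higher and 0 to 329 lower, and the cause was not tested. Genes at an unadjusted p under 0.05 numbered 1121 with specimen 5533 kept, 3632 with quality weights and 1004 with the fibroblast covariate, and 1522 to 2808 with 1 tumour left out. The basal median was 0.46 with 5533 kept, and with the fibroblast covariate the late keratin, basal and invasive front medians were -0.54, 0.16 and 0.23. The protease median was -1.23 to -0.83 with 1 tumour left out, the lowest without KO specimen 5543. With a mean of at least 50, 1 chromosome was called, 9, at a difference of -0.03 (exact p = 0.000733, the smallest possible). With line as a random block (correlation 0.0626), limma called 0 genes at a lowest adjusted p of 0.187. No paired analysis was possible because the groups share no replicate numbers. Depth limits low genes most in WT specimen 5532, and 1 KO line cannot stand for the genotype.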
